A study of Homo sapiens with 11 samples.

Results

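The change of the condensate effect with exposure duration was measured for each gene as a difference of differences. The effect of cigarette smoke condensate (CSC) against its vehicle DMSO at 48 hours was subtracted from the same effect at 2 weeks. All 11 RNA-seq libraries of the series entered the comparison, and 12506 of 23608 genes were tested, those with an FPKM (fragments per kilobase of transcript, relative to the library's mapped fragments) of at least 1 in 2 or more libraries. Every difference below is on the log2(FPKM + 0.5) scale, where a difference of 1 is a 2-fold change for well expressed genes and less than the true change for weak ones. A positive difference means that CSC moved the level up more, or down less, at 2 weeks than at 48 hours.

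The cells were A549, an established human lung adenocarcinoma line with features of alveolar epithelium. Those given DMSO alone yielded 2 libraries after 48 hours, numbered 2 and 3, and 3 after 2 weeks. Those given CSC yielded 3 at each time, at a dose labelled 20 µM although CSC is a mixture without a molar mass. Whether replicates came from separate cultures is not stated in the labels, and the p-values then measure the spread between these libraries alone, possibly a technical one. The time points also differ in the length of culture, which cannot be told apart from the length of exposure except through the DMSO libraries.

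CSC is the particulate matter of smoke collected and taken up in a solvent. Its polycyclic aromatic hydrocarbons bind the aryl hydrocarbon receptor (AHR), which then enters the nucleus, pairs with ARNT and turns on genes such as CYP1A1, CYP1B1, TIPARP and AHRR. The products of AHRR and TIPARP in turn restrain the receptor. Smoke oxidants and electrophiles act on other programmes, among them the NRF2 antioxidant response, the ATF4 branch of the integrated stress response and inflammatory signalling through NF-κB.

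The libraries correlated with each other at 0.959 to 0.988, and no pair held identical values. Summed FPKM ranged from 338507 to 484053, and 11742 to 12051 genes reached an FPKM of 1. Depth in reads is unknown. From the widths of the deposited bounds over 6106 lines, 10 libraries had a relative depth between 1 and 1.54 and CSC 2 weeks replicate 2 had 2.76. Libraries that stood apart were CSC 48 hours replicate 3, in the stress and inflammatory lists described below, and CSC 2 weeks replicate 2, which lay lowest of its group for ribosomal and histone genes. All 10 epithelial and A549 markers were present. PTPRC did not exceed 0.0282 in any library, endothelial markers summed to at most 0.0491, and COL1A2 and DCN were listed at 0 throughout. The alveolar type II surfactant markers with NKX2-1 summed to at most 0.330, near 0.

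Few genes passed the test of the difference. By limma with Benjamini-Hochberg adjustment over all genes, 5 of 12506 genes (0.04%) were called at an adjusted p under 0.05, of which 1 was higher (0.008%) and 4 were lower (0.032%). The 4 genes whose CSC effect moved down with time were CEACAM6, CCL2, GABRE and RTN4RL2, and the higher gene was the short RNA gene SNAR-E. They fell into 4 classes, set by whether the 95% interval of the effect excluded 0 at each time. The effect of 1 gene was transient (48 hours only, SNAR-E), 2 were delayed (2 weeks only, CEACAM6 and GABRE), 1 was growing (same direction, larger at 2 weeks, RTN4RL2) and 1 was reversed (CCL2). No called gene was waning, that is smaller at 2 weeks in the same direction. At an unadjusted p under 0.05 there were 615 higher genes (4.92%) and 261 lower (2.09%), together 7% of those tested. That split moved with the scaling of the libraries: it was 430 higher and 453 lower with median-of-ratios scaling, 230 and 716 with a common sum, and 421 and 429 with quantile normalization. The median difference of all genes was 0.09 as deposited and 0.01, -0.08 and 0.01 under those scalings.

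**Figure D1:**
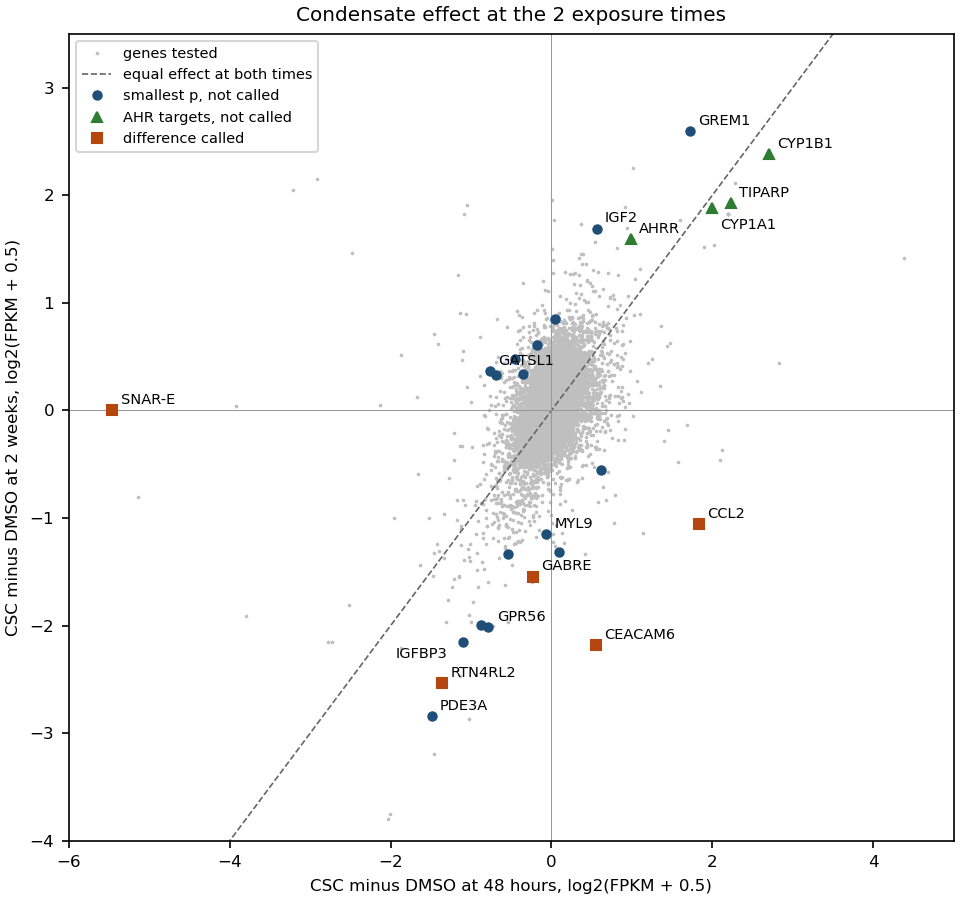
CSC minus DMSO at 48 hours (x axis) against CSC minus DMSO at 2 weeks (y axis), both on the log2(FPKM + 0.5) scale, for the 12506 genes tested (grey). Squares mark the 5 called genes, circles the genes with the next smallest p, and triangles 4 AHR targets, which lie near the dashed line of equal effects, with AHRR and GREM1 above it and CCL2 and CEACAM6 far below.

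CCL2, the chemokine that attracts monocytes (chr17:32582296-32584220, hg19), was the reversed gene. At 48 hours its FPKM was 5.94 and 2.27 in the DMSO libraries and 12.8, 16.6 and 14.5 in the CSC libraries. At 2 weeks it was 5.38, 7.20 and 4.42 in DMSO and 3.03, 2.20 and 2.09 in CSC. CSC libraries were thus all above DMSO at 48 hours and all below it at 2 weeks, with no overlap at either time. CSC raised CCL2 by 1.83 ± 0.29 (SE) at 48 hours (adjusted p = 0.0197) and lowered it at 2 weeks, with an effect of -1.06 ± 0.26 (adjusted p = 0.0365). The difference of the effects was -2.89, with a 95% interval from -3.74 to -2.04 (adjusted p = 0.0288). The DMSO level was not called as moved, at 0.52 with an interval from -0.11 to 1.15 (adjusted p = 0.50), whereas the CSC level fell by 2.37 (adjusted p = 0.000797). The DMSO libraries of 48 hours were farther apart than those of 2 weeks. Without DMSO 48 hours replicate 3 the difference was -2.28 (adjusted p = 0.083), and without replicate 2 it was -3.50 (adjusted p = 0.00129).

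CEACAM6, a cell surface adhesion glycoprotein of the carcinoembryonic antigen family (chr19:42259398-42276113, hg19), was a delayed gene whose DMSO level moved. Its FPKM at 48 hours was 7.64 and 6.93 in DMSO and 17.6, 7.48 and 9.71 in CSC. After 2 weeks it was 29.7, 30.1 and 26.1 in DMSO and 5.46, 7.57 and 4.95 in CSC. The DMSO libraries of 2 weeks stood above all others. The CSC libraries of 2 weeks lay below them without overlap, while the groups of 48 hours overlapped each other and CSC at 2 weeks. The CSC effect was 0.55 at 48 hours (interval -0.03 to 1.13) and -2.18 ± 0.24 at 2 weeks (adjusted p = 0.000314), a difference of -2.73 with an interval from -3.51 to -1.95 (adjusted p = 0.0288). In DMSO the level rose by 1.90 ± 0.27 between the times (adjusted p = 0.00632), and in CSC it fell by 0.83 (adjusted p = 0.0418). Without CSC 48 hours replicate 2 the interval at 48 hours excluded 0 and the gene was classed as reversed, and without DMSO 48 hours replicate 3 the DMSO rise lost its call (adjusted p = 0.078). CEACAM5, the carcinoembryonic antigen gene itself, lies near it on the chromosome (chr19:42212530-42234437, hg19) and was not called. Its FPKM was 0.218 and 0.0760 in DMSO and 0.102 to 0.295 in CSC at 48 hours, then 1.63, 1.36 and 1.19 in DMSO against 0.251 to 0.332 in CSC at 2 weeks. The CEACAM5 difference was -1.31 (unadjusted p = 0.00161, adjusted p = 0.55), with a DMSO rise of 1.55 (adjusted p = 0.0121).

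GABRE, the epsilon subunit of the GABA-A receptor chloride channel (chrX:151121596-151143151, hg19), was also delayed. Its FPKM was 7.29 and 7.87 in DMSO and 6.83, 5.88 and 6.47 in CSC at 48 hours. It was 11.2, 12 and 14.4 in DMSO and 3.33, 4.41 and 4.18 in CSC at 2 weeks. The 2 arms lay next to each other without overlap at 48 hours and far apart at 2 weeks. The effect went from -0.23 (interval -0.54 to 0.07) to -1.54 ± 0.13 (adjusted p = 3.12e-05), a difference of -1.31 with an interval from -1.72 to -0.90 (adjusted p = 0.0383). Both arms moved: DMSO rose by 0.68 (adjusted p = 0.0463) and CSC fell by 0.63 (adjusted p = 0.0171). The DMSO rise is near the threshold and was not called under the 3 other scalings (adjusted p = 0.169 to 0.292) or when a single library was left out: either DMSO library of 48 hours (0.259 for replicate 2, 0.187 for replicate 3), any DMSO library of 2 weeks (0.096 to 0.14), the first CSC library of 48 hours (0.062) or the third of 2 weeks (0.076). It also lost its call with a pseudocount of 0.1 (0.0562), without a filter on low values (0.097) and without the trend (0.0568). Under the other scalings the GABRE difference lost its call, with adjusted p = 0.0824 for median of ratios, 0.12 for a common sum and 0.117 for quantile normalization.

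RTN4RL2, a membrane-anchored relative of the Nogo receptor (chr11:57228339-57244384, hg19), was the growing gene. Its FPKM was 29.3 and 29.1 in DMSO and 13.2, 10.1 and 10.2 in CSC at 48 hours. It was 43.3, 39.2 and 39.7 in DMSO and 7.26, 6.48 and 6.10 in CSC at 2 weeks. All 4 groups were separate. CSC lowered it at both times, with effects of -1.36 ± 0.13 (adjusted p = 0.000498) and then -2.54 ± 0.12 (adjusted p = 1.72e-07), a difference of -1.18 with an interval from -1.56 to -0.80 (adjusted p = 0.0432). The CSC level fell by 0.70 (adjusted p = 0.01), while the DMSO level stood 0.47 higher at 2 weeks. The interval of that DMSO rise, from 0.19 to 0.75, excluded 0, but the rise was not called (adjusted p = 0.125).

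**Figure D2:**
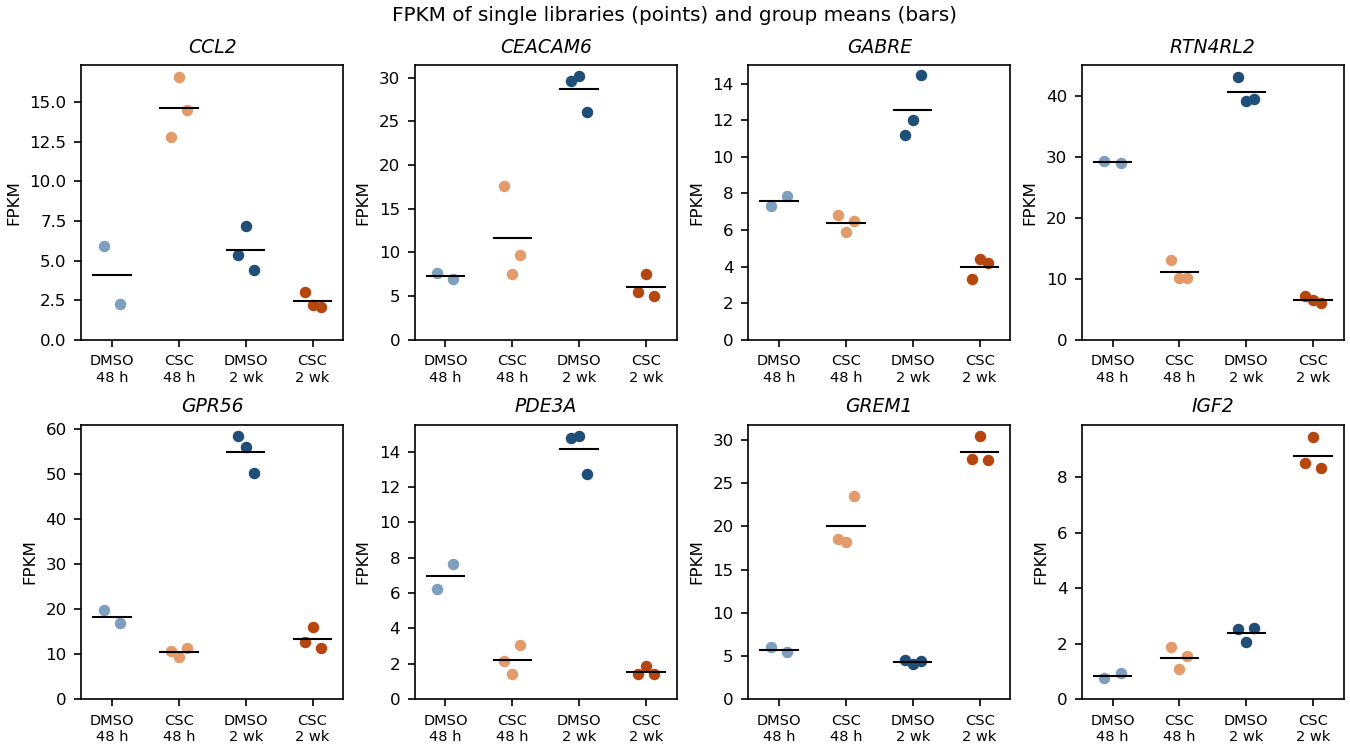
FPKM (y axis, linear from 0) of 8 genes in each library (points) with group means (bars) for DMSO and CSC at 48 hours and 2 weeks. CCL2 is highest in CSC at 48 hours and lowest in CSC at 2 weeks, CEACAM6 and GPR56 are highest in DMSO at 2 weeks, and GREM1 and IGF2 are highest in CSC at 2 weeks.

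SNAR-E is one of many near-identical copies of a short non-coding RNA that binds the protein NF90 (chr19:47333842-47333961, hg19). At 48 hours the DMSO libraries gave an FPKM of 22.5 and 20.6, and all 9 others, including DMSO at 2 weeks, list it at 0. The DMSO level was called as moved, with a change of -5.46 (adjusted p = 2.73e-08), while CSC was listed at 0 at both times. With DMSO at 0 at 2 weeks a lowering by CSC could not be seen there. The transient class of SNAR-E thus reflects the DMSO level. The fitted difference of SNAR-E, 5.46 (adjusted p = 9.78e-07), is set by the pseudocount, being 7.76 with a pseudocount of 0.1 and 4.49 with 1, so no fold is given. None of these 0 values was marked as a failed estimate, though a mark of low data was allowed. Reads of a short RNA with many copies may be assigned to another copy, so this call is uncertain.

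The calls of the 4 lower genes changed when single libraries were left out. Leaving out each library in turn kept CEACAM6 called in 5 of 11 fits, CCL2 in 4, GABRE in 3 and RTN4RL2 in 3, and the direction held for all 4 in all 11. All 4 lost their call without DMSO 48 hours replicate 3 (adjusted p = 0.083 to 0.349), without any one DMSO library of 2 weeks (0.0691 to 0.211), and without CSC 2 weeks replicate 3 (0.118 to 0.212). Of the 4, CCL2 alone was called without DMSO 48 hours replicate 2, as CEACAM6 had an adjusted p of 0.106 and GABRE and RTN4RL2 of 0.13. CEACAM6 alone of the 4 was called without CSC 48 hours replicate 1, as CCL2 had 0.0586, GABRE 0.105 and RTN4RL2 0.0881. Without CSC 2 weeks replicate 2 CEACAM6 was called (0.0313), while CCL2 (0.0887), GABRE (0.0526) and RTN4RL2 (0.0991) were not. The size of their differences moved less, from -2.99 to -2.40 for CEACAM6, -3.50 to -2.28 for CCL2, -1.39 to -1.21 for GABRE and -1.24 to -1.06 for RTN4RL2.

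The genes with the next smallest p were not called, and their values are given as such. Among the 8 in the lower direction the DMSO level often stood higher at 2 weeks, while the CSC level rose less or not at all. GPR56, an adhesion receptor coupled to G proteins, had 19.8 and 16.9 in DMSO and 9.27 to 11.4 in CSC at 48 hours. Its values at 2 weeks were 58.6, 56.1 and 50.4 in DMSO and 11.3 to 16.1 in CSC. Its CSC effect went from -0.78 to -2.02, a difference of -1.23 (adjusted p = 0.088), with a DMSO rise of 1.56 (adjusted p = 0.000375). PDE3A, a phosphodiesterase that degrades cyclic AMP, had 6.24 and 7.64 in DMSO and 1.43 to 3.07 in CSC at 48 hours, then 12.7 to 14.9 in DMSO and 1.40 to 1.84 in CSC. CSC lowered PDE3A at both times (-1.49, adjusted p = 0.011, and -2.84, adjusted p = 6.93e-06), and the difference was -1.35 (adjusted p = 0.313).

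IGFBP3, which binds insulin-like growth factors in the extracellular space, took another course. Its DMSO level was 123 and 92.6 at 48 hours and 99.5 to 112 at 2 weeks, a change of -0.01 with an interval from -0.35 to 0.33. Its CSC level was 44.5 to 53.4 and then 20.2 to 27.2, a fall of 1.06 (adjusted p = 0.00285). The difference of the effects was -1.05 (adjusted p = 0.277). The focal adhesion gene TNS1 (-1.11), the myosin light chain gene MYL9 (-1.08), the matrix metalloproteinase gene MMP28 (-1.41) and PGM2L1, which makes glucose 1,6-bisphosphate (-0.79), had adjusted p values of 0.277 to 0.377. In these 4 the DMSO level rose by 0.82 to 1.62 (adjusted p = 0.000809 to 0.0147), and the CSC change with time, from -0.02 to 0.49, was not called. For MYL9 the CSC change of 0.49 had an interval from 0.16 to 0.83 (adjusted p = 0.0531). The homeobox gene HOXD11 had an effect of 0.61 and then -0.56, at an FPKM under 1.81 in all libraries (difference -1.17, adjusted p = 0.439).

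In all 8 genes in the higher direction the CSC level was called as risen, and it changed more with time than the DMSO level. GREM1, which binds and blocks bone morphogenetic proteins outside the cell, had 6.01 and 5.39 in DMSO and 18.5, 18.2 and 23.5 in CSC at 48 hours. At 2 weeks it had 4.53, 4.03 and 4.46 in DMSO and 27.8, 30.5 and 27.7 in CSC. All CSC libraries were above all DMSO libraries at both times. The effect was 1.72 (adjusted p = 3.34e-05) and then 2.59 (adjusted p = 1.72e-07), a difference of 0.87 with an interval from 0.50 to 1.24 (adjusted p = 0.277). IGF2, the insulin-like growth factor, was 0.749 and 0.922 in DMSO and 1.07 to 1.86 in CSC at 48 hours, then 2.06 to 2.58 in DMSO and 8.35 to 9.47 in CSC. Both arms of IGF2 rose with time (DMSO 1.11, adjusted p = 0.0121, and CSC 2.24, adjusted p = 1.32e-05), and the difference was 1.13 (adjusted p = 0.297).

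FKBP5, a co-chaperone of steroid receptors, likewise rose in both arms (DMSO 1.20, adjusted p = 0.000375, and CSC 1.98, adjusted p = 1.97e-06). At 48 hours it was 6.81 and 6.71 in DMSO and 5.21 to 6.41 in CSC, and at 2 weeks 14.8 to 16.9 and 23.4 to 26.6. Its effect was -0.18 and then 0.60, a difference of 0.78 (adjusted p = 0.277). GATSL1 had 10.8 and 13.2 in DMSO and 5.88 to 7.57 in CSC at 48 hours, and 13.4 to 14.1 and 16.2 to 19.6 at 2 weeks. Its groups did not overlap at either time and changed order, with a difference of 1.13 (adjusted p = 0.0722). GATSL2 gave nearly the same values (difference 1.02, adjusted p = 0.151) and is a near-identical copy, so the 2 may share reads and are no independent pair. NDUFA3, a subunit of mitochondrial complex I, was 72.6 and 89.5 in DMSO and 55.5 to 64.2 in CSC at 48 hours, then 54.9 to 71.4 and 80.0 to 91.8, a difference of 0.93 (adjusted p = 0.297). The readthrough pseudogene TBC1D3P1-DHX40P1 (0.70) and the pseudogene RNF5P1 (0.81), which share sequence with other loci, completed the 8 (adjusted p = 0.277 and 0.302).

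Over these genes without SNAR-E, the 12 lower ones included 7 whose DMSO level was called as risen with time and 5 where it was not called, and the CSC level fell in 5. The 8 higher ones included 2 with a called DMSO rise and 6 where the DMSO change was not called, and the CSC level rose in all 8. Of those 6, GREM1, NDUFA3 and RNF5P1 stood lower in DMSO at 2 weeks (-0.36, -0.38 and -0.29). Their intervals excluded 0 (adjusted p = 0.245, 0.277 and 0.358), so a DMSO fall adds to these differences. The DMSO intervals of GATSL1, GATSL2 and TBC1D3P1-DHX40P1 included 0. Among all genes 0.768% were called for time in DMSO (0.656% upward) and 13.7% for time in CSC (12.3% upward, 1.38% downward). These arms contain the libraries of the difference itself, so the counts are a description. The DMSO arm moved more than the CSC arm in 159 of the 261 genes lower at an unadjusted p under 0.05 (60.9%), in 85 of the 615 higher ones (13.8%) and in 34.7% of all genes. The DMSO level was called in 42 of the 261, upward in 41, and in 7 of the 615. These counts over all genes are for values as deposited and were not recomputed under other scalings. The median change with time over all genes was 0.19 in CSC and 0.09 in DMSO. Summed FPKM was 338507 to 353627 in the CSC libraries of 48 hours and 387870 to 484053 in those of 2 weeks. Their part in the counts was not tested.

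**Figure D3:**
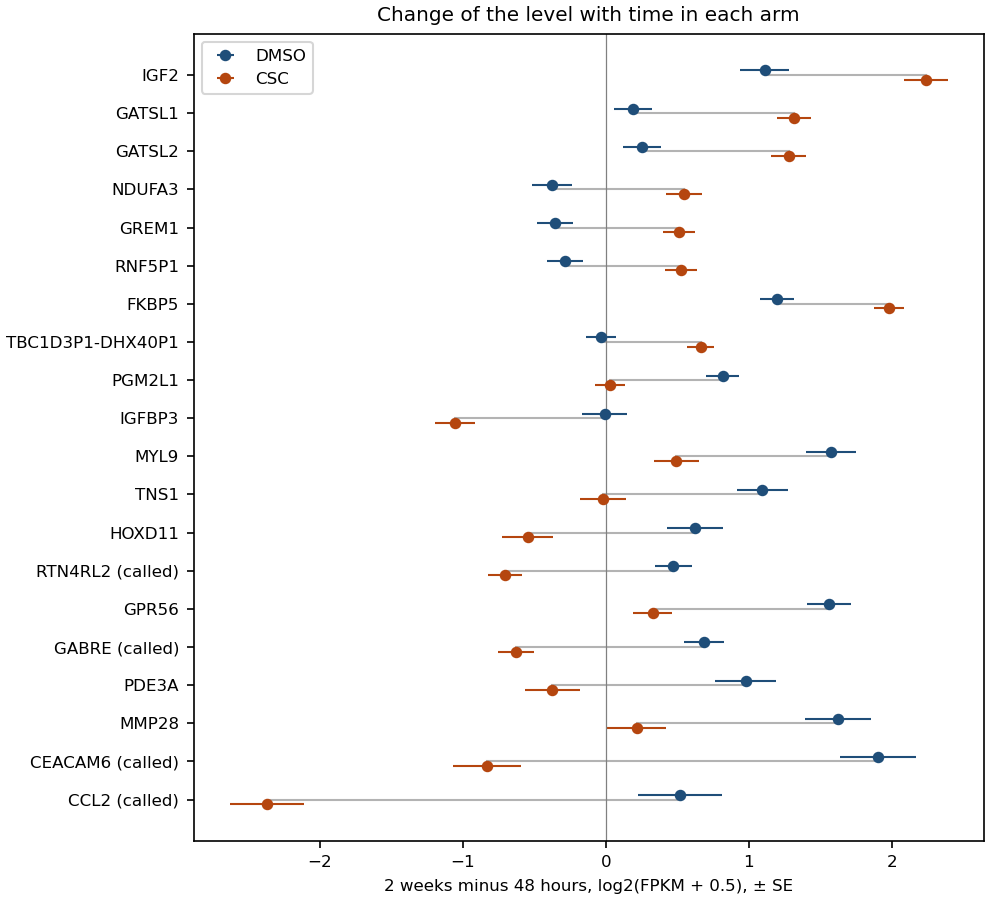
Change of the level from 48 hours to 2 weeks on the log2(FPKM + 0.5) scale (x axis, points with SE) in DMSO and in CSC for 20 genes ordered by the difference of their CSC effects. In CEACAM6, GPR56, MMP28, MYL9, TNS1 and PGM2L1 the DMSO point is the one farther from 0, whereas in CCL2, IGFBP3 and the upper 8 genes it is the CSC point.

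Taken over the 876 genes with an unadjusted p under 0.05, 594 were delayed (67.8%), 119 transient, 46 growing, 16 reversed, 5 waning and 96 unresolved, meaning that neither effect excluded 0. Among all genes, delayed patterns made up 20.4% and unresolved ones 71.2%. The 876 genes were selected by the difference that the 2 effects make up. Their shares therefore cannot be compared with those of all genes. Of the 594 delayed genes 465 were in the higher direction, whose count fell under the other scalings. The classes of this wider set were not recomputed under those scalings, and the set was chosen after the data were seen. Of the 36 genes called at 48 hours (0.288% of those tested), 33 had the same sign at 2 weeks. Of these 33, 18 were growing, 14 were waning and HNRNPA1P10 was transient. The others were CCL2 and GATSL1, which reversed, and SNAR-E, which was transient. For 3 of the 36 the difference itself was called. Of the 676 genes called at 2 weeks (5.41%), 412 had an interval that included 0 at 48 hours. The difference was called for 4 of the 676, of which CCL2 and RTN4RL2 had effects at both times. Passing the threshold at 1 time and not at the other thus seldom went with a called difference. At an unadjusted p under 0.05 the difference was found for 313 of the 676 and 12 of the 36, against 7% of all genes. These sets share libraries with the difference, so the counts are a description. HNRNPA1P10, a pseudogene picked after its values were seen, had 0.0248 and 0.00908 in DMSO and 3.93 to 35.7 in CSC at 48 hours, then 8.27 to 27.1 and 19.4 to 94.4. Its difference of -2.97 was not called (adjusted p = 0.647).

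The precision of the difference limits what was detectable. The median SE was 0.21 for the difference, against 0.156 for the effect at 48 hours and 0.140 at 2 weeks, and the median half-width of its 95% interval was 0.455, or 1.37-fold. The smallest called difference was -1.18. In all, 24 genes differed by more than 2 in either direction, of which 3 were called, and their median SE was 1.23. Across genes the effects at the 2 times correlated at 0.45 (Pearson) and 0.42 (Spearman). Genes are not independent replicates.

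Among 4 direct AHR targets, the induction of TIPARP and CYP1B1 by CSC was called at both times and that of CYP1A1 and AHRR at 2 weeks (adjusted p = 0.0103 and 0.00231) but not at 48 hours (0.0634 and 0.19). For none of them was a difference between the times detectable. TIPARP, an ADP-ribosyltransferase that restrains AHR, had 11.7 and 8.20 in DMSO and 47.2, 45.8 and 50.7 in CSC at 48 hours. It later had 12.9, 11.1 and 11.5 in DMSO and 41.3, 47.0 and 51.1 in CSC. The groups were apart at both times and the CSC libraries of the times overlapped. The TIPARP effects of 2.23 and 1.93 differed by -0.30, with an interval from -0.73 to 0.13 (adjusted p = 0.755).

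CYP1B1, a monooxygenase that oxidizes polycyclic hydrocarbons, had 5.43 and 7.35 in DMSO and 50.5, 26.0 and 64.8 in CSC at 48 hours. By 2 weeks it had 11.7, 12.6 and 9.96 in DMSO and 59.7, 72.1 and 53.8 in CSC. Its difference was -0.32, with an interval from -1.17 to 0.52 (adjusted p = 0.861). CYP1A1, the related monooxygenase that is the classical AHR target, stayed low, at no more than 0.217 in any DMSO library. In CSC it had 1.88, 0.698 and 3.81 at 48 hours and 1.73, 1.95 and 1.44 at 2 weeks. The CYP1A1 difference of -0.12 had an interval from -1.28 to 1.03 and its sign turned with single libraries: it was 0.33 without CSC 48 hours replicate 3 and 0.0092 without DMSO 2 weeks replicate 2.

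AHRR, the repressor that competes with AHR for its partner, had 0.459 and 0.647 in DMSO and 1.91, 0.867 and 2.20 in CSC at 48 hours, then 0.292 to 0.586 and 2.33 to 2.54. Its effect was 0.98 and then 1.59, with a difference of 0.61 and an interval from -0.17 to 1.39 (adjusted p = 0.738). In CYP1B1, CYP1A1 and AHRR the CSC libraries of 48 hours spread more than those of 2 weeks, with replicate 2 lowest and replicate 3 highest in each. AHR itself was 10.6 and 12.9 in DMSO and 7.92 to 9.33 in CSC at 48 hours, then 11.6 to 13.6 and 7.64 to 7.97. Its lowering by CSC was called at 2 weeks (-0.67, adjusted p = 0.00411) and not at 48 hours (-0.46, adjusted p = 0.178), yet the difference was only -0.21 with an interval from -0.57 to 0.14.

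Promoters of 2 genes called in the difference and of 3 AHR targets not called in it are shown because the AHR complex binds the xenobiotic response core GCGTG. Whether the differences of the 2 sets differ from each other was not tested. Each runs from 250 bases before to 50 after the RefSeq start on GRCh38.p14, 5′ to 3′ on the gene's strand, with the core in capitals in either orientation (CACGC on the opposite strand).
CEACAM6: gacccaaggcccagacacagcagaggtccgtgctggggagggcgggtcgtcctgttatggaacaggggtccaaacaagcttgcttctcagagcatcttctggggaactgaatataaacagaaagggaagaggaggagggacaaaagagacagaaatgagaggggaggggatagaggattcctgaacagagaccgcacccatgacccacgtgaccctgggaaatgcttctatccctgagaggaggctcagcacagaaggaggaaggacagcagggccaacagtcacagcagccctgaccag
GABRE: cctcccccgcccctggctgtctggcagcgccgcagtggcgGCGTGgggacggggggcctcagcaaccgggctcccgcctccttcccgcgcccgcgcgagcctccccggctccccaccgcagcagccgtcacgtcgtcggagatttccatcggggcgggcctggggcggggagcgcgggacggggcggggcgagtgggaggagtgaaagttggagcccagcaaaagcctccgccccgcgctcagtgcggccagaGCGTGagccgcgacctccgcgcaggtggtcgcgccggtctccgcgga
TIPARP: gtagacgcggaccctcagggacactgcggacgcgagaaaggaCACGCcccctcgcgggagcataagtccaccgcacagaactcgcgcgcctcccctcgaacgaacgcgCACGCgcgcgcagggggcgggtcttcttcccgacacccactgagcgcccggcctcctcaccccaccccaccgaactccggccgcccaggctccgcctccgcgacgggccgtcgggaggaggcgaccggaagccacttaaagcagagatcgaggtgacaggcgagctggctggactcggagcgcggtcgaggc
CYP1A1: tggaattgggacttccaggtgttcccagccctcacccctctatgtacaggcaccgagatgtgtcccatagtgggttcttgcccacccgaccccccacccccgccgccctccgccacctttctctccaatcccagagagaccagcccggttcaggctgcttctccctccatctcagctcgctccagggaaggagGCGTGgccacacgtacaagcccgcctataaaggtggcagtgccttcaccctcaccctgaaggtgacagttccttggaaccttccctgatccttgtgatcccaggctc
AHRR: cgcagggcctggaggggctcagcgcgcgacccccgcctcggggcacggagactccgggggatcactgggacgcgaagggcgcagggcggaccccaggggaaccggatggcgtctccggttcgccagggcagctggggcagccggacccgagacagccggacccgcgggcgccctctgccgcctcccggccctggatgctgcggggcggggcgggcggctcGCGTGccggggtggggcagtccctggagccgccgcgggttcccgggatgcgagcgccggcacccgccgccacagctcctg
The windows are, on GRCh38.p14, chr19:41755280-41755579 (plus strand) for CEACAM6, chrX:151974627-151974926 (minus) for GABRE, chr3:156674340-156674639 (plus) for TIPARP, chr15:74725479-74725778 (minus) for CYP1A1 and chr5:321464-321763 (plus) for AHRR. The core occurs 0 times in the CEACAM6 window, 2 times in those of GABRE and TIPARP, and once in those of CYP1A1 and AHRR. It is found in 36.5% of the 35116 RefSeq promoters of the same length. On both strands, none of the 5 windows held the antioxidant response pattern TGACNNNGC (13.3% of all promoters), the cyclic AMP response element TGACGTCA (1.85%), the AP-1 pattern TGANTCA (7.71%) or the C/EBP-ATF pattern TGATGNAA (3.62%). The antioxidant and AP-1 patterns can overlap each other. A match says only that the letters are present. RefSeq entries were matched for 16 of the 28 genes looked up (those called or with the smallest p, and the AHR and oxidant genes).

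The lists of genes below were chosen with earlier results of these data known. In each of them, higher and lower mean a difference above or below 0 at an unadjusted p under 0.05, which 4.92% and 2.09% of all genes reached. With single libraries left out these shares ranged from 2.48% to 10.5% higher, the highest without CSC 2 weeks replicate 2, and from 1.45% to 2.72% lower. Among the 22 listed AHR-responsive genes 17 were measured, of which 1 was higher and 2 lower. Their median difference was -0.15, against 0.09 over all genes, and it was 0.08 without CSC 48 hours replicate 3. The transglutaminase gene TGM2 had 74.5 and 65.9 in DMSO and 34.4 to 42.6 in CSC at 48 hours, then 136 to 146 and 41.0 to 49.7. The TGM2 difference was -0.72 (adjusted p = 0.55), and its DMSO level rose by 0.99 (adjusted p = 0.00423). IGFBP6 (0.49) and UGT1A6 (-0.80) had adjusted p values of 0.647 and 0.702. NQO1, which both AHR and NRF2 can induce, was 270 and 297 in DMSO and 282 to 342 in CSC at 48 hours, then 293 to 343 and 397 to 504. Its difference was 0.29, with an interval from -0.15 to 0.73, and turned to -0.032 under quantile normalization.

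The inflammatory cytokine and chemokine genes had the lowest median difference of the 20 lists with all 11 libraries. The secretory and the liver-type lists lay lower without DMSO 48 hours replicate 3 (-0.64 and -0.67, against -0.45) and without CSC 48 hours replicate 2 (-0.67 and -0.63, against -0.55), and the secretory list also without CSC 2 weeks replicate 2 (-0.59 against -0.56) and with library weights (-0.50 against -0.46). Of 31 listed genes 19 were measured, 7 were lower and 0 higher, and the median difference was -0.62. CCL2 alone was called. Their median CSC effect was 0.31 at 48 hours and -0.16 at 2 weeks. IL8, a neutrophil chemokine, had 1.39 and 1.45 in DMSO and 2.13, 1.54 and 4.84 in CSC at 48 hours, then 1.25 to 1.76 and 0.308 to 1.02, a difference of -1.51 (adjusted p = 0.63). IL11, a cytokine of the IL6 family, had 29.5 and 12.8 in DMSO and 5.40 to 11 in CSC at 48 hours, then 17.2 to 20.5 and 2.60 to 3.47, a difference of -1.34 (adjusted p = 0.63). The IL8 effect was 0.67 and then -0.83, each with an adjusted p above 0.13, while IL11 lay lower in CSC at both times (-1.13, adjusted p = 0.211, and -2.47, adjusted p = 0.000436).

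The other 4 members past the unadjusted threshold were CXCL3 (-0.95), CXCL1 (-1.18), CXCL5 (-0.42), all neutrophil chemokines, and RELB (-0.75), a subunit of NF-κB. By the interval rule CXCL3 and RELB were transient, CXCL1 delayed and CXCL5 growing. Unlike the list median, CXCL5 was lower in CSC at both times (-0.42, adjusted p = 0.246, and -0.85, adjusted p = 0.000976). Of these 4, CXCL5 alone had a called DMSO change, a fall of 1.42 (adjusted p = 0.000161). RELB had 6.48 and 4.09 in DMSO and 8.90, 9.46 and 11.4 in CSC at 48 hours, but 4.73 to 5.89 and 4.60 to 6.44 at 2 weeks, where the groups overlapped. The list's median level in CSC 48 hours replicate 3 was 0.79 above the mean of the 11 libraries, against 0.23 and 0.20 in replicates 1 and 2. Without replicate 3 the median difference was -0.39, with 9 lower and 0 higher. Leaving out other libraries gave 5 (without DMSO 48 hours replicate 3) to 10 lower genes. Leukocyte markers summed to between 5.89 and 11.7, from CD68, CD14 and LYZ, with PTPRC and CD3E at or near 0.

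Genes of the ATF4 branch of the integrated stress response, which supplies amino acids and transfer RNA charging under stress, gave different counts with and without 1 library. With all libraries, 3 of 33 measured genes were higher (PHGDH, PSAT1 and ASNS) and 0 lower, with a median of 0.29 and none called. ASNS, asparagine synthetase, had 27.6 and 27.1 in DMSO and 24.5, 27.2 and 68.2 in CSC at 48 hours. The values at 2 weeks were 21.4, 18.7 and 17.8 in DMSO and 53.7, 43.0 and 54.5 in CSC. CSC replicates 1 and 2 of 48 hours matched DMSO, and replicate 3 reached the levels of 2 weeks.

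The same split was seen in PHGDH, the first enzyme of serine synthesis, with 16.1, 15.7 and 33.4 in CSC at 48 hours against 15.8 and 16.1 in DMSO. In CSC at 2 weeks PHGDH had 28.0 to 39.8 against 10.9 to 12.5 in DMSO. CHAC1, which degrades glutathione, had 1.36, 1.98 and 12.8 in CSC at 48 hours and 3.93 to 7.32 at 2 weeks, and DDIT3, a stress-induced transcription factor, had 2.99, 3.98 and 34.5 and then 3.37 to 9.91. CHAC1, DDIT3 and PCK2 were picked after their values were seen. Without CSC 48 hours replicate 3, 22 of 33 genes were higher, against 7.09% of all genes in that fit, and the median was 0.68. ASNS (1.44, adjusted p = 0.0228), PCK2 (1.31, adjusted p = 0.0228), PHGDH (1.43, adjusted p = 0.0243) and CHAC1 (2.12, adjusted p = 0.0475) were then called, all as delayed. With all 11 libraries their adjusted p ranged from 0.63 to 0.785. What set replicate 3 apart was not tested.

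**Figure D4:**
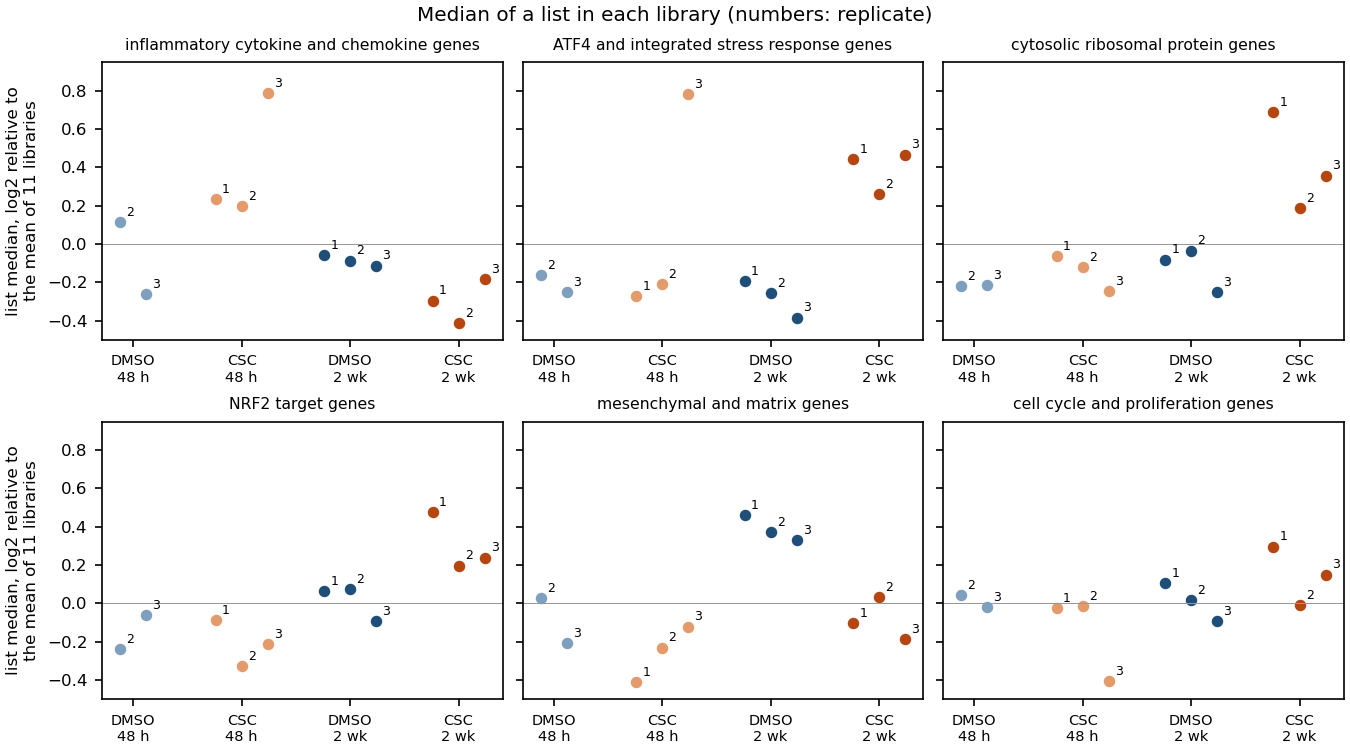
Median level of 6 gene lists in each library relative to the mean of all 11 libraries (y axis, log2), with the replicate number beside each point. CSC 48 hours replicate 3 stands apart at 0.79 for the inflammatory list and 0.78 for the ATF4 list, and at -0.41 for the cell cycle list.

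Cytosolic ribosomal protein genes were the list with the largest number past the unadjusted threshold, 32 of 78 higher and 0 lower, with a median difference of 0.47. Their median CSC effect was 0.07 at 48 hours and 0.53 at 2 weeks, and none was called in the difference. RPL12 had 378 and 377 in DMSO and 386 to 418 in CSC at 48 hours, then 331 to 395 and 676, 496 and 595, a difference of 0.62 (adjusted p = 0.63). RPL27A (0.59) had an adjusted p of 0.63 and RPL30 (0.54) of 0.64. The count changed with the scaling, as did the share of all genes. It was 28 with median-of-ratios scaling (3.44% of all genes), 18 with a common sum (1.84%) and 12 with quantile normalization (3.36%). The list's median stood 0.38 above that of all genes as deposited, and 0.38, 0.37 and 0.15 above it under those scalings. With single libraries left out the count was 8 without DMSO 48 hours replicate 3 (2.64% of all genes), 9 without replicate 2 (4.35%), 7 without DMSO 2 weeks replicate 3 (2.48%) and 73 without CSC 2 weeks replicate 2 (10.5%). In the CSC libraries of 2 weeks the list's median level was 0.69, 0.19 and 0.36, and the summed FPKM of those libraries was 484053, 387870 and 413718 in the same order. Their part in the result was not tested.

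NRF2 targets were higher in 7 of 32 genes and lower in 0, with a median of 0.40, but 0.08 and 3 higher under quantile normalization, where 3.36% of all genes were higher. Among them were GSR and GCLC, which recycle and make glutathione, the sulfiredoxin gene SRXN1, the ferritin light chain gene FTL, UGDH and PGD. GCLC had 35.4 and 42.1 in DMSO and 29.8 to 42.3 in CSC at 48 hours, then 38.8 to 48.3 and 63.1 to 71.0, a difference of 0.62 (adjusted p = 0.64). Its CSC effect was called at 2 weeks (0.57, adjusted p = 0.0405). HMOX1, the haem-degrading NRF2 target, did not share this course, with an effect of -0.24 and then -0.49 and a difference of -0.25 (interval -0.70 to 0.20). Without DMSO 48 hours replicate 3 the count was 2 of 32, against 2.64% of all genes, and without DMSO 2 weeks replicate 3 it was 2 as well, against 2.48%.

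Mesenchymal and matrix genes had a median difference of -0.35, with 2 of 30 higher and 4 lower. The number lower was 13 without DMSO 48 hours replicate 2 (2.72% of all genes) and 1 without replicate 3 (1.68%). Their median change with time was 0.46 in DMSO, with 3 members called, and 0.26 in CSC. LAMB3, a laminin chain of basement membrane, had 3.10 and 2.16 in DMSO and 2.30 to 3.64 in CSC at 48 hours, then 6.39 to 7.58 and 3.95 to 5.11. The LAMB3 difference was -0.72 (adjusted p = 0.64), and its level rose in DMSO (1.30, adjusted p = 0.00632) and in CSC (0.58, adjusted p = 0.0388). COL6A2 went the other way (0.67), from an effect of 0.09 to 0.76. The fibroblast markers summed to 4.10 and 6.55 in DMSO at 48 hours and to between 11.1 and 12 at 2 weeks, from COL1A1, with DCN and COL1A2 listed at 0. In bulk RNA, fewer cells of a type and less RNA per cell cannot be told apart.

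Among epithelial genes 3 of 22 were lower and 0 higher, CEACAM6, CEACAM5 and the adhesion molecule EPCAM (-0.89, adjusted p = 0.64), and the median was -0.07. Secretory genes had 3 of 10 lower, namely the defensin gene DEFB1, the mucin gene MUC13 and the protease inhibitor gene SLPI, and 1 higher, S100P. The median of the secretory list was -0.32, and 0.11 without DMSO 48 hours replicate 2. DEFB1 had 0.884 and 0.901 in DMSO and 0, 0 and 0.792 in CSC at 48 hours, then 3.01 to 4.02 in DMSO against 0, 0.153 and 0 in CSC. SLPI had at most 1.36 in all libraries of 48 hours and 6.70 to 9.97 in DMSO and 3.26 to 5.67 in CSC at 2 weeks. Its level rose in both arms (DMSO 3.11, adjusted p = 0.000788, and CSC 2.09, adjusted p = 0.00497), and the difference was -1.01 (adjusted p = 0.702).

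Of 25 immediate early genes 1 was higher and 3 lower, with a median of -0.18, and 7 were lower without CSC 48 hours replicate 1 (2.32% of all genes). NR4A1, an orphan nuclear receptor, had the largest difference among the waning genes named here. It had 6.47 and 9.49 in DMSO and 1.66, 1.28 and 2.09 in CSC at 48 hours, then 5.75 to 6.85 and 2.30 to 3.18. CSC lowered NR4A1 at both times (-1.96, adjusted p = 0.000643, and -1.0, adjusted p = 0.0066), with a difference of 0.96 (unadjusted p = 0.00305, adjusted p = 0.55). JUN had an effect of 0.91 and then -0.28, with 17.4 and 7.20 in DMSO and 18.0 to 23.9 in CSC at 48 hours. Its difference was -1.18 (adjusted p = 0.63), and its DMSO libraries of 48 hours were more than 2-fold apart.

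Genes of cholesterol and fatty acid synthesis were higher in 4 of 32 and lower in 0, with a median of 0.20. Cell cycle genes had 3 of 44 higher (MCM5, CDT1 and MCM7) and a median of 0.31, which was 0.14 without CSC 48 hours replicate 3, the library with the lowest median level of that list. Without CSC 2 weeks replicate 2, 10 of 44 cell cycle genes and 5 of 33 hypoxia and glycolysis genes were higher, in a fit where 10.5% of all genes were. Replication-dependent histone genes had 0 of 25 past the threshold at a median of 0.36, and 17 of 25 were higher without CSC 2 weeks replicate 2, against 10.5% of all genes in that fit. Over all other scalings, filters, fits and left-out libraries the histone median ran from 0.04 to 0.62. The same range was 0.02 to 0.25 for cholesterol and fatty acid synthesis and 0.006 to 0.26 for hypoxia and glycolysis.

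With all libraries the remaining lists gave no more than 2 members in 1 direction. Heat shock genes had 0 of 18 and a median of 0.23, which turned to -0.09 without CSC 48 hours replicate 3. Hypoxia and glycolysis genes had 0 of 33 (median 0.16), endoplasmic reticulum chaperones 0 of 20 (0.01), interferon-stimulated genes 0 of 21 (-0.05), liver-type secreted protein genes 0 of 9 (-0.19) and genes near CpG sites associated with smoking 0 of 15 (-0.04). The medians of the chaperone, liver-type, interferon and smoking lists changed sign with a scaling or a single library. Among p53 targets, BAX was higher (0.54) and PLK2 lower (-0.45) of 23, and cyclic AMP genes had 2 of 27 higher, PRKAR2B and CREM, and 1 lower, PDE3A. No member of these lists was called in the difference.

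**Figure D5:**
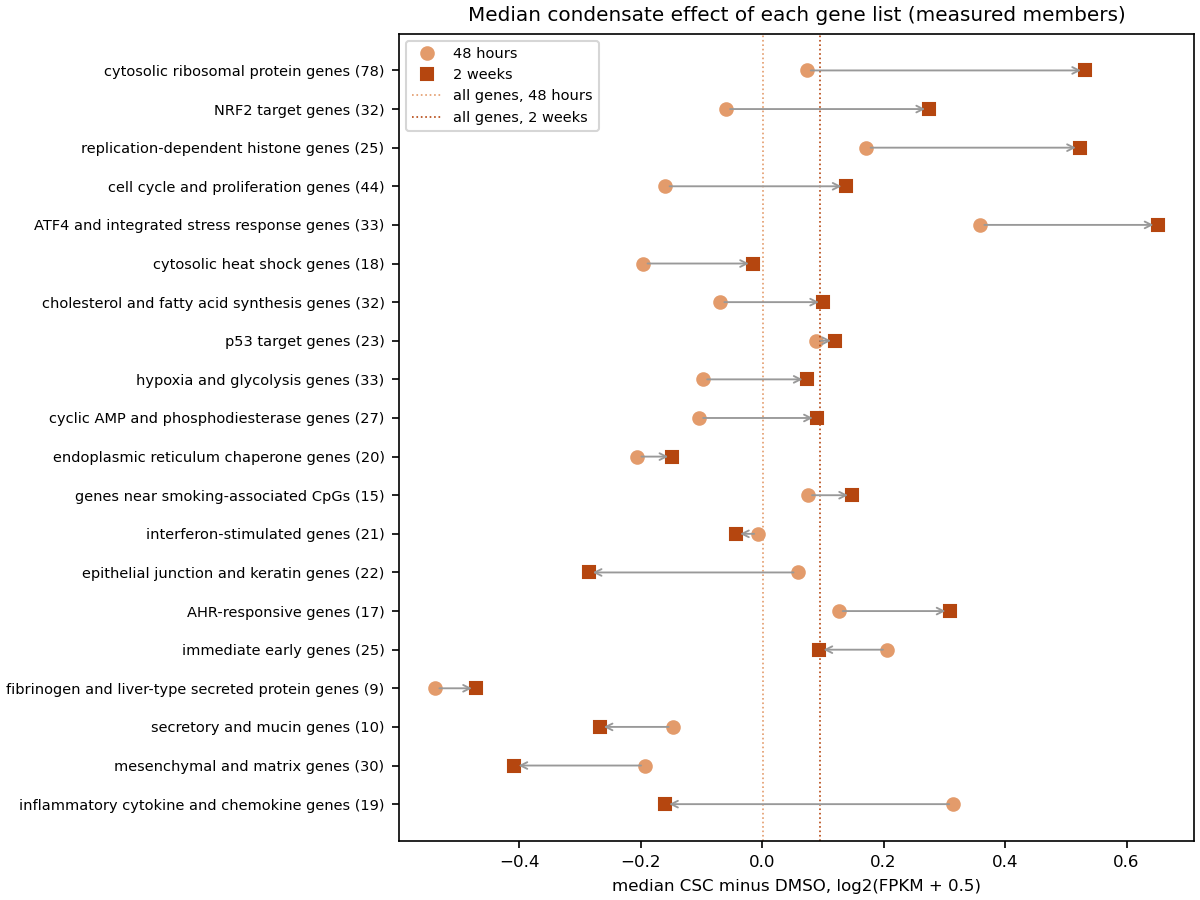
Median CSC minus DMSO of the measured members of each list (number in brackets) on the log2(FPKM + 0.5) scale at 48 hours (circles) and 2 weeks (squares), with dotted lines for all genes. The inflammatory list moves from 0.31 to -0.16, while the ribosomal list moves from 0.07 to 0.53.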

How the data were processed

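RNA-seq of 11 A549 libraries was deposited as FPKM by the authors, 1 value per gene and locus in 25275 lines per library, with bounds. Per the labels' protocols, ribosomal RNA was removed with a Ribo-Zero Gold kit, libraries were sequenced on a HiSeq instrument and reads were aligned to hg19 with TopHat2 version 2.0.9. CASAVA version 1.7.1a5 appears in the submitters' processing notes. What quantified the genes, on which annotation and strand setting, is not given in the sources used here. FPKM are not counts, so no count model was used and depth is known in relative terms only. Start positions in the deposited tables count from 0 and are printed from 1.

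FPKM was summed over loci per symbol (548 of 23609 symbols had several), and 1 gene with a failed estimate was left out. Libraries were grouped by title. All 11 entered 1 limma fit (version 3.58.1, R version 4.3.3) of log2(FPKM + 0.5) with 4 groups, no block and a trended eBayes prior. Two-sided p-values were adjusted by Benjamini-Hochberg over the 12506 genes, with calls at an adjusted p under 0.05. No batch is named in the labels.

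Named genes are all those called, up to 4 per class, the 8 next in each direction, up to 3 per list by p, and 8 genes reported whatever their values (CYP1A1, CYP1B1, AHRR, TIPARP, NQO1, AHR, GREM1, HMOX1). CXCL1, CXCL3, CXCL5, RELB, CHAC1, PCK2, DDIT3, HNRNPA1P10, FTL, PGD, UGDH and SLPI were picked after their values were seen. The comparison, the 20 lists and these choices were made with earlier results of these data known. Counts were recomputed under other pseudocounts, filters, scalings and fits, with each library left out, and on simulated data. Some genes that this rule names are not reported here. No explanation was tested.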

Additional observations from a re-analysis of the deposited data

Results flagged for a closer look

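For 5 genes the CSC effect differed between 48 hours and 2 weeks by the test of the difference itself, in limma with Benjamini-Hochberg adjustment. The difference of the effects, 2 weeks minus 48 hours, was 5.46 for SNAR-E, -2.73 for CEACAM6, -2.89 for CCL2, -1.31 for GABRE and -1.18 for RTN4RL2, all on the log2(FPKM + 0.5) scale. In CCL2 all CSC libraries lay above all DMSO libraries at 48 hours and below them at 2 weeks. The SNAR-E value rests on 2 libraries, DMSO at 48 hours, with all others listed at 0.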

How the results depend on the processing

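The 5 calls (1 higher, 4 lower) were counted again under each alternative. Pseudocounts of 0.1 and 1, robust estimation and leaving out symbols at several loci gave 1 higher and 4 lower. Without a filter there were 3 higher and 0 lower (1 delayed, 0 growing). A filter at an FPKM of 5 left 1 higher and 4 lower, but SNAR-E lost its call (adjusted p = 0.253), leaving 0 transient and 2 reversed. Each of the 3 other scalings gave 1 higher and 3 lower, with 1 delayed. Without the trend, and at an adjusted p under 0.01, 1 was higher and 0 were lower, with 0 delayed, 0 growing and 0 reversed. At an adjusted p under 0.1 there were 2 higher and 5 lower (2 growing, 2 reversed). Without small RNA symbols 0 were higher and 0 transient. Library weights, whose estimation stopped before convergence, gave 48 higher and 36 lower, with 4 transient, 43 delayed, 17 growing, 2 waning and 18 reversed, and turned SDF2L1 to -0.11. Over genes with an unadjusted p under 0.05 (an alternative chosen after seeing the data) the classes held 119 transient, 594 delayed, 46 growing, 5 waning, 16 reversed and 96 unresolved.

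With each library left out, 0 to 6 genes were higher and 0 to 5 lower, 0 to 1 transient, 0 to 6 delayed, 0 to 2 growing and 0 to 2 reversed. There were 0 calls without DMSO 48 hours replicate 3 and 6 higher and 4 lower without CSC 48 hours replicate 3. CYP1A1 ranged from -0.59 to 0.33, and NQO1 was -0.032 under quantile normalization. SNAR-E was tested and called in 9 of these fits, each of which left out a library listing it at 0, so its difference stayed at 5.46. Without either DMSO library of 48 hours it did not pass the filter and was not tested. These 9 calls are therefore no check on it. Leaving a DMSO library of 48 hours out leaves 1, assumed to vary like the other groups. Of 2167 values of single named genes under these alternatives, 2085 kept direction and side of the threshold, 45 lost and 33 gained the call, and 4 reversed. Most of the 84 named genes were not called with all libraries, so they had no call to lose. The lost calls were all among the 5 called genes: GABRE in 14 of 26 settings, RTN4RL2 in 11, CCL2 in 10, CEACAM6 in 9 and SNAR-E in 1 of 23.

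With the replicate number as a block 3 were higher and 4 lower, with 3 reversed, as GATSL1 and GATSL2 were added. Deviations of same-numbered libraries correlated above 0.1 in 5 of 15 pairs (-0.20 to 0.31, other pairs -0.22 to 0.28). Because 10 pairs did not pass 0.1 and the labels do not say what a number marks, the numbers were not taken to pair the samples. The data hold a hint of pairing: all 3 pairs of replicate 1 passed 0.1 (0.31, 0.19 and 0.22), and 7 of 11 libraries correlated best with their own number. Same-numbered pairs of replicates 2 and 3 ran from -0.20 to 0.22. Deviations of the 2 DMSO libraries of 48 hours mirror each other, so the matches are not independent. The number of best matches without pairing was not estimated.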
